A study of Homo sapiens with 8 samples.

Results

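Genes that encode transcription factors of the blood lineages were examined in genome-wide maps of endogenous G-quadruplexes (G4s): GATA2, TAL1, LYL1, LMO2, KLF1, NFE2, GFI1B, RUNX1, ZFPM1 and IKZF1. They were named by their role in blood cells, with earlier results of these data known. They make up 10 of the 20163 protein-coding genes of the GENCODE annotation on hg19. G4 ChIP-seq, in which sheared chromatin is pulled down with an antibody against folded G4s and sequenced, had been carried out in 2 untreated, asynchronous human cell lines. K562 derives from a chronic myelogenous leukemia and HepG2 from a hepatocellular carcinoma, so a difference between the lines is a difference between 2 cancer cell cultures of unlike tissue origin. For each line the labels list 3 ChIP libraries with the G4 antibody and 1 of input, 8 in all, whereas the deposited data are 2 merged lists of genomic intervals per line. The high-confidence lists hold stretches called in at least 5 of 8 replicates of K562 or 6 of 9 replicates of HepG2, and the lower-confidence lists those called in at least 2 of 8 or 2 of 9. Per the study's supplement these were technical replicates, 2 or 3 from each of 3 independent experiments per line. The 8 or 9 replicates therefore do not count as that many independent cultures. A call in 5 of 8 or 6 of 9 needs more than 1 experiment, whereas a call in 2 of 8 or 2 of 9 can come from 1.

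An interval in these lists has a chromosome, a start and an end, but no height, read count or q-value. The depth behind an interval is therefore unknown, no spread between replicates could be computed, and none of the comparisons below carries a test. Shares of intervals are given with 95% Wilson intervals, which cover the counting of intervals only, and the main counts over the 10 genes are set beside the same counts over all protein-coding genes. The lists hold no expression values, so the identity of the cells could not be checked against marker transcripts.

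A G4 is a four-stranded DNA fold that G-rich strands can take up, classically from successive runs of guanines separated by short loops. The genes studied here encode proteins that work together in making blood cells. GATA2 is the GATA factor of haematopoietic stem and progenitor cells, and it hands over to GATA1 as red cells mature. TAL1 and its close relative LYL1 are basic helix-loop-helix proteins that bind E-boxes with partners such as TCF3, LMO2 is the bridge that joins them to LDB1 and a GATA factor, and ZFPM1 (also called FOG1) is a cofactor of GATA1. KLF1 binds CACCC elements of globin and other red cell genes, NFE2 encodes the large subunit of NF-E2 that pairs with small MAF proteins, and GFI1B is a repressor of the red cell and platelet lineages. RUNX1 binds DNA with CBFB and is needed for the first blood stem cells, and IKZF1 (Ikaros) directs lymphoid development. K562 cells have features of early red cell and megakaryocyte precursors, while HepG2 cells keep many features of hepatocytes.

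Each gene was searched over its body plus the 2 kb upstream of each annotated transcription start site (TSS), referred to as its window. The G4 motif searched for consists of 4 G-runs, each 3 G or longer, joined by loops that are 1 to 7 bases long, on the plus or the minus strand. Of the 11 motifs that lay inside high-confidence intervals, 8 are shown first because they are the sequences under the peaks, and the other 3, both of LYL1 and 1 of ZFPM1, are given below by position. All are written 5′ to 3′ on the G-rich strand of the hg19 reference, and the capitals mark the runs of G.
TAL1, chr1:47697927-47697954, minus strand, under the K562 interval: GGGGccGGGcGGGcgcGGGGcGGGcGGG
KLF1, chr19:12996050-12996075, minus strand, under the K562 interval: GGGGaagaaGGGttgcagaGGGcGGG
RUNX1, chr21:36262142-36262177, minus strand, under a K562 interval: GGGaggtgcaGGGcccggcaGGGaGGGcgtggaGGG
RUNX1, chr21:36262207-36262229, minus strand, under the same K562 interval: GGGGccGGGatccGGGGactGGG
RUNX1, chr21:36260958-36260975, minus strand, under a second K562 interval: GGGcgcGGGcGGGacGGG
ZFPM1, chr16:88519115-88519144, plus strand, under intervals of both lines: GGGGtctaGGGaGGGaccaaGGGctGGGGG
ZFPM1, chr16:88535079-88535112, minus strand, under a K562 interval: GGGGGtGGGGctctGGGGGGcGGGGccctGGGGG
ZFPM1, chr16:88554689-88554719, plus strand, under a HepG2 interval: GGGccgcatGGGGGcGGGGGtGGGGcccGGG

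TAL1, KLF1 and RUNX1 lie on the minus strand of the chromosome and ZFPM1 on the plus strand. Of the 9 motifs inside K562 high-confidence intervals, those of LYL1 included, 7 had their G-runs on the coding strand of the gene, beside 54.6% of the motifs inside such intervals over all genes. In HepG2 3 of 3 did, beside 53.1%. The K562 motifs spanned 18 to 48 bases and the HepG2 motifs 24 to 31.

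The K562 peaks reached more of these genes than the HepG2 peaks did. A K562 high-confidence interval was present in the window of 8 of the 10 genes, all but LMO2 and IKZF1, where 38.3% of all protein-coding genes had one. A HepG2 high-confidence interval was present at 4 of the 10, GATA2, GFI1B, RUNX1 and ZFPM1, where 34.9% of all genes had one. The 4 genes TAL1, LYL1, KLF1 and NFE2 had a high-confidence interval in K562 and none in HepG2, a pattern found at 11.7% of all genes. The opposite pattern was found at 0 of the 10 genes, beside 8.26% of all genes. TAL1 and KLF1 had no interval in either HepG2 list despite a K562 high-confidence interval, a combination seen at 2.91% of all genes.

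The same order held close to the start sites and with the looser threshold. In the 2 kb upstream of a TSS, 7 genes had a K562 high-confidence interval (35.1% of all genes) and KLF1 dropped out. In the same stretch GATA2, GFI1B, RUNX1 and ZFPM1 had a HepG2 high-confidence interval (30.4% of all genes). All 10 genes had an interval in the K562 lower-confidence list (54.3% of all genes), and 6 had one in that of HepG2 (58.2% of all genes), namely GATA2, LYL1, NFE2, GFI1B, RUNX1 and ZFPM1. The HepG2 shares of the 10 genes, 40% and 60%, thus lay near those of all genes, and the K562 shares, 80% and 100%, lay above them. The windows were of ordinary length, with a median of 26719 bp beside 29219 bp for all genes, and 5 of the 10 were longer than that all-gene median.

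**Figure D1:**
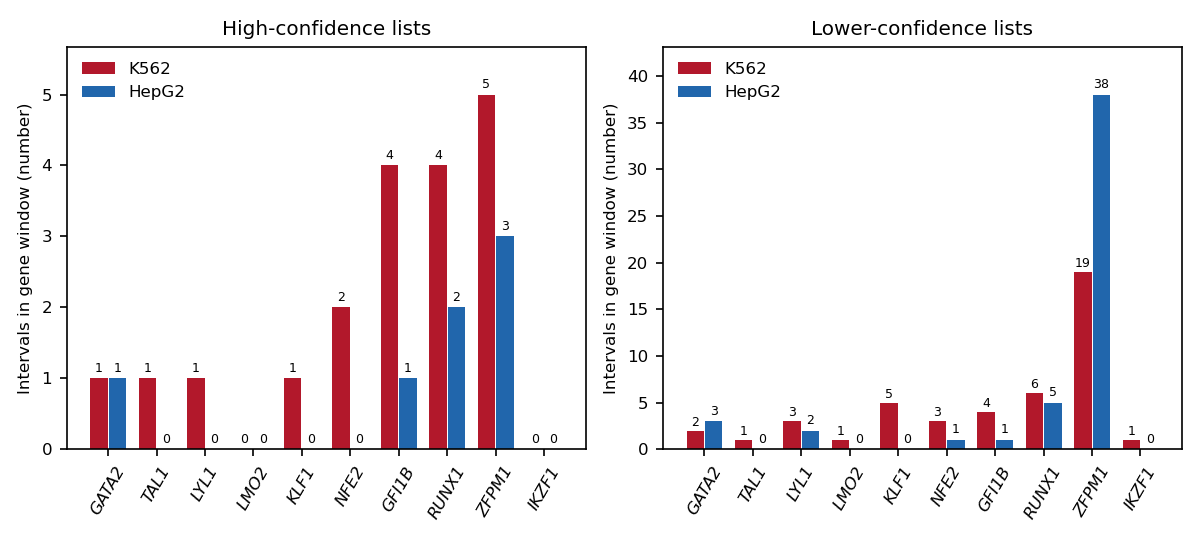
Number of G4 ChIP-seq intervals in the window of each gene (vertical axis) in the high-confidence lists (left) and the lower-confidence lists (right), red for K562 and blue for HepG2, with the count above each bar. ZFPM1 held 19 K562 and 38 HepG2 lower-confidence intervals, while no other gene held more than 6 in a list.

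The 10 windows held 121 of the 65646 intervals of the 4 lists. These were 19 K562 and 7 HepG2 high-confidence intervals, and 45 K562 and 50 HepG2 lower-confidence intervals. ZFPM1 alone accounted for 5, 3, 19 and 38 of them in that order, so that 76% of the HepG2 lower-confidence intervals lay in 1 gene. Without ZFPM1 the lower-confidence intervals numbered 26 in K562 and 12 in HepG2.

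Most K562 peaks of these genes had no HepG2 counterpart. Among the 19 K562 high-confidence intervals, 14 overlapped no interval of either HepG2 list (73.7%, 95% confidence interval 51.2 to 88.2), whereas 24.4% of all K562 high-confidence intervals did so. A further 4 overlapped a HepG2 high-confidence interval, and 1 in ZFPM1 overlapped a lower-confidence interval only. If a HepG2 interval within 500 bp counted as shared, 12 of the 19 were still without one, a setting not counted over all intervals. In HepG2, 3 of 7 were absent from both K562 lists (42.9%, 15.8 to 75.0), beside 32.9% of all HepG2 high-confidence intervals. These 3 lay in introns, 1 in RUNX1 and 2 in ZFPM1. The intervals of 1 gene share a locus and are not independent of each other.

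Median widths were below those of the whole lists. The K562 high-confidence intervals measured a median of 155 bp (9 to 732 bp) beside 195 bp over all 9205, and the HepG2 ones 153 bp, with the narrowest at 62 bp, beside 169 bp over all 8805. A motif lay inside 7 of 19 K562 intervals (36.8%, 19.1 to 59.0), beside 32.6% of all K562 high-confidence intervals. In HepG2 it was 3 of 7 (42.9%, 15.8 to 75.0), beside 20.6% of all, and the 3 were all in ZFPM1. Runs of at least 2 G in place of 3 gave 17 of 19 K562 intervals (all intervals 89.6%) and 7 of 7 HepG2 intervals (all intervals 79.6%). Median GC content was 66.8% beside 70.3% for all K562 intervals, and 65.4% beside 65.2% for all HepG2 intervals.

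**Figure D2:**
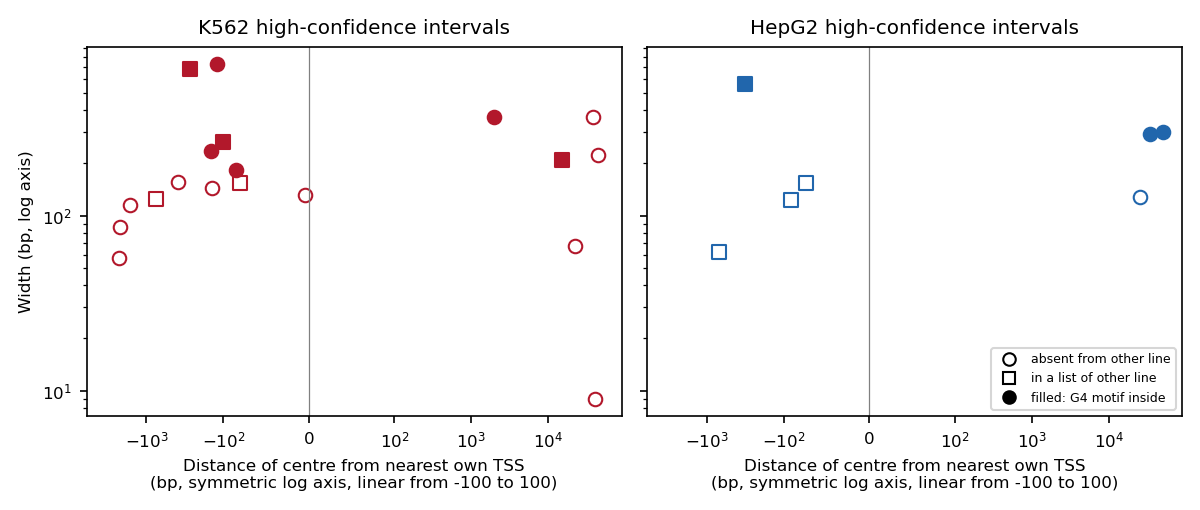
Width in bp (vertical axis, log scale) of the 19 K562 and 7 HepG2 high-confidence intervals against the distance in bp of their centre from the nearest TSS of their own gene (horizontal axis, linear from -100 to 100 and logarithmic beyond, negative upstream). Circles mark intervals absent from both lists of the other line, squares those in a list of the other line, and filled symbols those with a G4 motif inside. The 4 HepG2 squares are upstream of a TSS, and the 3 HepG2 circles lie more than 10 kb inside a gene.

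GATA2 (ENSG00000179348.13, chr3:128198270-128212044, minus strand) was marked in both lines at the same place. K562 had the interval chr3:128206764-128206916, of 153 bp, and HepG2 had chr3:128206789-128206911, of 123 bp. The HepG2 interval lay wholly within the K562 one and covered 80.4% of it. Their centres were 81 bp and 91 bp upstream of an internal start at 128206759, and 5204 bp and 5194 bp inside the canonical transcript, in an intron. Neither held a G4 motif, although both lower-confidence intervals around them, of 407 bp in K562 and 453 bp in HepG2, reached one at chr3:128206985-128207016, which was singled out after its position was seen. The motif and the whole K562 interval are shown on the coding strand, with runs of at least 3 G or 3 C in capitals in the interval, because the runs of the peak itself are spaced too widely for the motif.
GATA2 motif beside the peak: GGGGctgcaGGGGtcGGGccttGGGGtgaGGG
GATA2 peak of K562: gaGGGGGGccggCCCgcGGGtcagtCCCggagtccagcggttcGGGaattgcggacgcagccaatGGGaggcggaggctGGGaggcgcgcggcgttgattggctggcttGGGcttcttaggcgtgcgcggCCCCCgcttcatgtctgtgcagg

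The other GATA2 intervals reached only the lower threshold. K562 had chr3:128207056-128207143 (88 bp), and HepG2 had chr3:128207289-128207380 (92 bp) over another internal start at 128207373 and chr3:128211858-128211881 (24 bp). The last is the sole interval within 500 bp of the canonical, distal start at 128212044, where K562 had none.

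TAL1 (ENSG00000162367.12, chr1:47681962-47697897, minus strand) had a single K562 peak and no HepG2 interval. The high-confidence interval chr1:47697927-47698158 was 232 bp wide and centred 145 bp upstream of the canonical start at 47697897. Its lower-confidence counterpart, chr1:47697883-47698208, was 326 bp wide. The TAL1 motif shown above was cut by the edge of the high-confidence interval. In the wider interval it ran on to chr1:47697900, over 55 bases and 10 runs of G, to within 3 bases of the canonical start. It is shown for that reason, and was chosen after its position was seen.
TAL1 motif in the wider interval: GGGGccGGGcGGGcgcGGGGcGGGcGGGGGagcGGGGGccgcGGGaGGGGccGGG

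The nearest HepG2 high-confidence interval lay 81895 bp from the canonical start of TAL1, beside 30 bp for K562.

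LYL1 (ENSG00000104903.5, chr19:13209847-13213975, minus strand) carried the widest peak of the 10 genes. The K562 high-confidence interval chr19:13213428-13214159 measured 732 bp and covered all 3 annotated starts of the gene. It held 2 motifs, at chr19:13213571-13213608 on the minus strand and at chr19:13213839-13213886 on the plus strand, with 5 and 7 runs of G. HepG2 had only lower-confidence intervals there, chr19:13210928-13211059 (132 bp) and chr19:13213072-13213314 (243 bp), both in introns, and neither overlapped a K562 interval. The nearer of them was centred 345 bp downstream of the start at 13213538. K562 had 2 further lower-confidence intervals, of 99 and 136 bp.

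LMO2 (ENSG00000135363.12, chr11:33880122-33913623, minus strand) was marked at the lower threshold in K562 only. The interval chr11:33892050-33892170, of 121 bp, was centred 35 bp upstream of an internal start at 33892075, and 21513 bp inside the canonical transcript. The nearest high-confidence intervals to the canonical start lay 117380 bp away in K562 and 155502 bp away in HepG2. The LMO2 motif, at chr11:33892147-33892165 on the plus strand, is shown because it lies under the only interval of the gene and was chosen for that after the values were seen.
LMO2 motif: GGGaGGGtggctGGGaGGG

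ZFPM1 (ENSG00000179588.9, chr16:88519688-88603439, plus strand) held the most intervals of the 10 genes. Both lines had a peak at its promoter. In K562 this was chr16:88519076-88519760 (685 bp), and in HepG2 chr16:88519090-88519651, which lay wholly inside it and covered 82.0% of it. The centres were 270 bp and 318 bp upstream of the canonical start. Both held the first ZFPM1 motif shown above.

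Within the gene body the lines had different high-confidence intervals. K562 had the intronic intervals chr16:88535054-88535259 (206 bp), chr16:88558000-88558364 (365 bp), chr16:88560859-88560867 (9 bp) and chr16:88564251-88564470 (220 bp). Only the first of them overlapped a HepG2 interval, a lower-confidence one of 276 bp, and it lay 170 bp from the start of the microRNA gene MIR5189, nearer than to any ZFPM1 start. The second K562 interval lay close to the HepG2 lower-confidence interval chr16:88557813-88557943 without overlapping it. That HepG2 interval overlapped a K562 lower-confidence one of 3 bp. The HepG2 intronic intervals chr16:88554445-88554735 (291 bp) and chr16:88571292-88571589 (298 bp) overlapped no K562 interval. Each held a motif on the coding strand, that of the second at chr16:88571518-88571541. The starts of MIR5189 and of the antisense gene ZFPM1-AS1 were closer to the other intronic intervals than the ZFPM1 starts were, with distances of 19264 to 29034 bp.

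The lower-confidence lists gave ZFPM1 19 intervals in K562 and 38 in HepG2. Of these, 5 of 19 and 5 of 38 overlapped an interval of the other line. The same share over the whole lower-confidence lists, of 19249 intervals in K562 and 28387 in HepG2, was not counted. These overlap counts therefore have no background beside them. Intervals without a high-confidence peak numbered 14 in K562, with widths of 3 to 222 bp and a median of 95.5 bp, and 35 in HepG2, with widths of 25 to 436 bp and a median of 126 bp. One of the HepG2 intervals, chr16:88517909-88517933 (25 bp), lay upstream of the start. ZFPM1 held 120 of the 326 G4 motifs in the windows, and 7 of the 120 lay under K562 and 13 under HepG2 lower-confidence intervals.

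KLF1 (ENSG00000105610.6, chr19:12995236-12998015, minus strand) was marked in K562 only, and mainly inside the gene. The high-confidence interval chr19:12995859-12996221, of 363 bp, was centred 1975 bp downstream of the single annotated start, in an intron, and held the KLF1 motif shown above. Its promoter carried lower-confidence intervals, chr19:12997845-12998082 (238 bp) across the start and chr19:12998403-12998590 (188 bp) centred 481 bp upstream of it. A further pair lay within the coding sequence, of 54 and 119 bp. HepG2 had no interval in this window, and its nearest high-confidence interval was 3624 bp from the KLF1 start. These 5 K562 lower-confidence intervals in a window of 4780 bp made 105 per 100 kb, the highest density of the 10 genes in that list, followed by LYL1 with 48.9. KLF1 and LYL1, with 6129 bp for the latter, also had the shortest windows of the 10 genes. The density over all genes was not computed.

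NFE2 (ENSG00000123405.14, chr12:54685895-54694799, minus strand) had 2 K562 peaks at 2 starts. The interval chr12:54694738-54694868 (131 bp) lay over the canonical start, its centre 4 bp upstream, and 183 bp from the start of the neighbouring gene COPZ1. The interval chr12:54689613-54689755 (143 bp) was centred 140 bp upstream of an internal start at 54689544. Neither contained a G4 motif, and the whole window contained 1. A K562 lower-confidence interval of 91 bp lay further inside the gene. HepG2 had only the lower-confidence interval chr12:54688390-54688616 (227 bp), in an intron, which overlapped no K562 interval.

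GFI1B (ENSG00000165702.15, chr9:135819387-135867074, plus strand) had a peak in both lines upstream of its main start and 3 more in K562. The K562 interval chr9:135853223-135853347 (125 bp) and the HepG2 interval chr9:135853311-135853372 (62 bp) shared 37 bp, which is 29.6% of the former and 59.7% of the latter, the smallest overlap of the 4 genes marked in both lines. Their centres lay 796 bp and 740 bp upstream of the canonical start. The K562 intervals chr9:135859750-135859806 (57 bp), chr9:135859823-135859908 (86 bp) and chr9:135860351-135860465 (115 bp) lay in an intron, 5697 to 6327 bp inside the canonical transcript, and had no HepG2 counterpart. None of the GFI1B peaks contained a motif, although 1 motif began inside the last of them and ended beyond its edge. A K562 lower-confidence interval, chr9:135820251-135820410 (160 bp), fell in the window through a distal start of GFI1B, but it was centred 109 bp from the start of TSC1 and 590 bp from the GFI1B start at 135820920.

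RUNX1 (ENSG00000159216.19, chr21:36160098-37376965, minus strand) was marked at its proximal promoter in both lines. The K562 interval chr21:36260957-36261218 (262 bp) and the HepG2 interval chr21:36260985-36261137 (153 bp) both covered the proximal start at 36260987, and the HepG2 one lay wholly inside the K562 one and covered 58.4% of it. The motif under the K562 interval lay 10 bases outside the HepG2 interval, which held none. K562 had a second cluster about 1 kb upstream, around the start at 36262087, with chr21:36262082-36262262 (181 bp) and chr21:36262404-36262558 (155 bp). HepG2 had no interval there in either list.

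Further upstream, within intronic sequence of the canonical RUNX1 transcript, the lines had different peaks. K562 had chr21:36399114-36399180 (67 bp) and HepG2 had chr21:36395814-36395941 (128 bp), centred 22452 bp and 25722 bp inside the canonical transcript. At the distal promoter, near 36421599, neither line had a high-confidence interval. The lower-confidence intervals nearest to it were chr21:36423598-36423762 (165 bp) in K562 and chr21:36423647-36423832 (186 bp) in HepG2, centred 2081 bp and 2140 bp upstream of that start, and they overlapped. K562 had 2 more at the lower threshold, chr21:36260445-36260566 (122 bp) and one of 81 bp, which lay nearer to the start of the gene ENSG00000234703 than to a RUNX1 start. HepG2 had 2 more, of 91 and 359 bp.

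IKZF1 (ENSG00000185811.21, chr7:50343664-50472799, plus strand) had a single interval, like LMO2. K562 had 1 lower-confidence interval, chr7:50427856-50427961 (106 bp), in an intron 83596 bp inside the canonical transcript, without a motif. HepG2 had none. The nearest high-confidence intervals were 173706 bp from the canonical start in K562 and 284314 bp in HepG2.

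**Figure D3:**
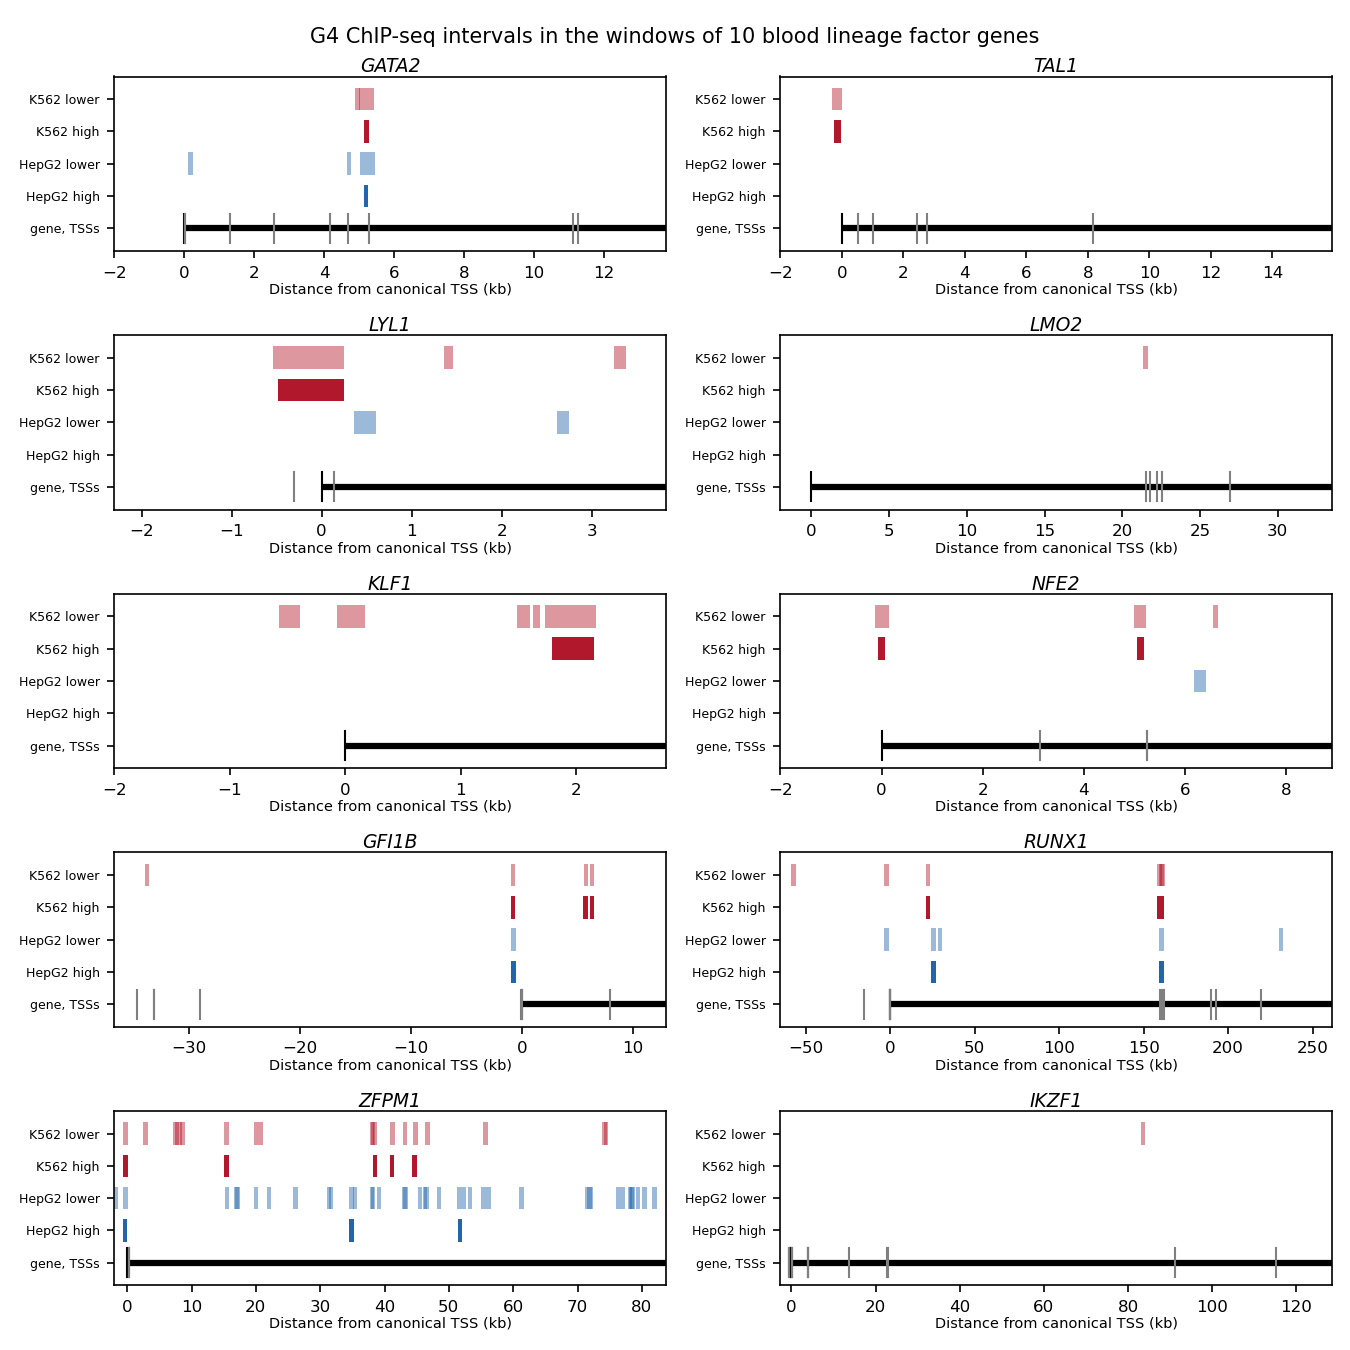
Intervals of the 4 lists (rows, pale for lower confidence and dark for high confidence, red for K562 and blue for HepG2) along each gene, by distance in kb from the canonical TSS, with transcription running to the right. The black bar is the canonical transcript and the ticks are annotated TSSs. Intervals too narrow to be seen at this scale are drawn at a fixed minimum width, and for RUNX1 the far upstream part of the window, which held no interval, is left out. Red and blue high-confidence intervals coincide at GATA2, GFI1B, RUNX1 and ZFPM1, and red ones stand alone at TAL1, LYL1, KLF1 and NFE2.

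Across the 76 annotated TSSs of the 10 genes, 15 had a K562 high-confidence interval within 500 bp (19.7%) and 7 had a HepG2 one (9.21%), beside 23.6% and 20.4% of the TSSs of all protein-coding genes. With the lower-confidence lists these were 19 (25%) and 13 (17.1%), beside 34.1% and 34.3%. Counted by TSS, the shares of the 10 genes thus lay below those of all genes in all 4 lists, whereas counted by gene window the K562 shares lay above and the HepG2 shares near them. Neighbouring TSSs often shared 1 interval. IKZF1 supplied 18 of the 76 TSSs, none with an interval of any list within 500 bp, and RUNX1 supplied 16. The shares by TSS thus weigh genes by their number of annotated starts. For the K562 high-confidence list, the order relative to all genes depends on IKZF1. Of the 19 K562 high-confidence intervals, 10 lay within 1 kb of a TSS of their own gene (52.6%) and 11 touched the 2 kb upstream of one (57.9%), beside 84.9% and 82.8% of the K562 high-confidence intervals in the windows of all genes. Of the 7 HepG2 ones, 4 did so by either measure (57.1%), beside 77.2% and 76.1%. Counted by interval, the peaks of these genes thus lay away from start sites more often than those of all genes, a difference that was not tested. It was not shared by all of the genes. Most K562 peaks over 1 kb from a TSS of their own gene lay in ZFPM1 and GFI1B, and the rest in KLF1 and RUNX1. Every K562 peak of GATA2, TAL1, LYL1 and NFE2 lay within 1 kb of one. The distant HepG2 peaks lay in ZFPM1 and RUNX1.

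Most G4 motifs in these genes lay outside the peaks. Of the 326 motifs in the 10 windows, 3.07% were under a K562 high-confidence interval, at least in part, and 0.920% under a HepG2 one, beside 2.26% and 1.30% of the motifs of all genes. The lower-confidence lists covered 6.75% in K562 and 4.60% in HepG2, beside 4.08% and 3.46% for all genes. The windows held 20.7 motifs per 100 kb beside 15.7 for all genes.

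Short sequence elements were counted in the 300 bp centred on each high-confidence interval, on both strands. They were the GATA site, the E-box, CACCC and GGGCGG. No element was searched for RUNX1, NFE2, GFI1B or IKZF1. A GATA site is GATA with A or T before it and A or G after it. It was present at 9 of 19 K562 intervals (47.4%), beside 13.9% of all K562 high-confidence intervals searched in the same way. In HepG2 it was present at 1 of 7, beside 15.7%. The 9 K562 intervals were 1 each at TAL1, LYL1, NFE2 and RUNX1, 2 at ZFPM1 and 3 at GFI1B, of which 2 GFI1B windows overlap and share a site. All 9 belonged to the 14 intervals absent from HepG2 (26.8% of all such K562 intervals had a site), and 0 of the 5 present in HepG2 had one (9.66% of all such intervals). Distance to a start moved with the same count. Over 1 kb from a coding TSS, 6 of 9 had a site (30.9% of all), and within 1 kb 3 of 10 did (9.48% of all). Whether position or the difference between lines goes with the GATA sites was not tested. The E-box CANNTG was present at 57.9% of the K562 intervals beside 58.3% of all, CACCC at 73.7% beside 70.4%, and GGGCGG at 63.2% beside 80.8%. In HepG2 each of the 3 was present at 5 of 7 intervals (71.4%), beside 64.3%, 68.3% and 64.6% of all. A match of letters is not a bound site.

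Among the peaks of at most 300 bp, the 2 with the most GATA sites inside them are shown whole on the coding strand, with the GATA letters or their reverse complement in capitals, since they have no G4 motif. The first is the internal NFE2 peak, with 3 sites, and the second the GFI1B peak nearest to 3′, with 2.
NFE2 peak, chr12:54689613-54689755: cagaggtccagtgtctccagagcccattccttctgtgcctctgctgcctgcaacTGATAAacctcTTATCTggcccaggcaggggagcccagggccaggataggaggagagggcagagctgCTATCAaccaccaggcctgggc
GFI1B peak, chr9:135860351-135860465: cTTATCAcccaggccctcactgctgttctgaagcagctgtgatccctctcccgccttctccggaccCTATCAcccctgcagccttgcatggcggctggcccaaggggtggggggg

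Partners and relatives of the 10 proteins were counted in the same way. Of 36 related blood genes, 22 had a K562 high-confidence interval (61.1%, beside 38.3% of all genes). A HepG2 one was present at 14 (38.9%, beside 34.9% of all genes). Of the 36, 11 had one in both lines, 11 in K562 only (11.7% of all genes) and 3 in HepG2 only (8.26% of all genes). Their windows were longer than those of the 10 genes, with a median of 66929 bp. Among the partners of the GATA and TAL1 complexes, 7 of 8 had a K562 and 2 of 8 a HepG2 high-confidence interval. LDB1, which holds the complex together, TCF12, an E-protein, and SSBP2, a stabiliser of LDB1, had a K562 peak and no HepG2 interval. That combination, with neither HepG2 list holding an interval, was seen at 2.91% of all genes. Their windows were 15880, 382659 and 340994 bp long. GATA1 itself had only 1 K562 lower-confidence interval. NF-E2 partners and competitors were marked at 4 of 4 genes in K562 and 3 of 4 in HepG2. The set of GFI1 and its corepressors was marked at 4 of 5 and 3 of 5 genes, and GFI1 itself had no interval in any list. Of the 12 other blood factors, 5 had a K562 and 3 a HepG2 peak. MYB and EBF1, with windows of 39866 and 405997 bp, had a K562 peak with no HepG2 interval. RUNX1 partner and paralog genes had 1 and 2 of 3, with a high-confidence interval at CBFB in HepG2 and only a lower-confidence one in K562, and Ikaros paralogs 1 and 1 of 4.

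Genes of hepatocyte factors showed the reverse order. Of 10, 2 had a K562 high-confidence interval (20%, beside 38.3% of all genes) and 5 a HepG2 one (50%, beside 34.9%). HNF4A and FOXA1, which direct the liver programme, had a HepG2 high-confidence interval and no K562 interval in either list. No gene of these 10 had a high-confidence interval in K562 alone, as 4 of the 10 blood factor genes did. These lists are short, both were chosen with earlier results of these data known, and the difference between them was not tested.

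**Figure D4:**
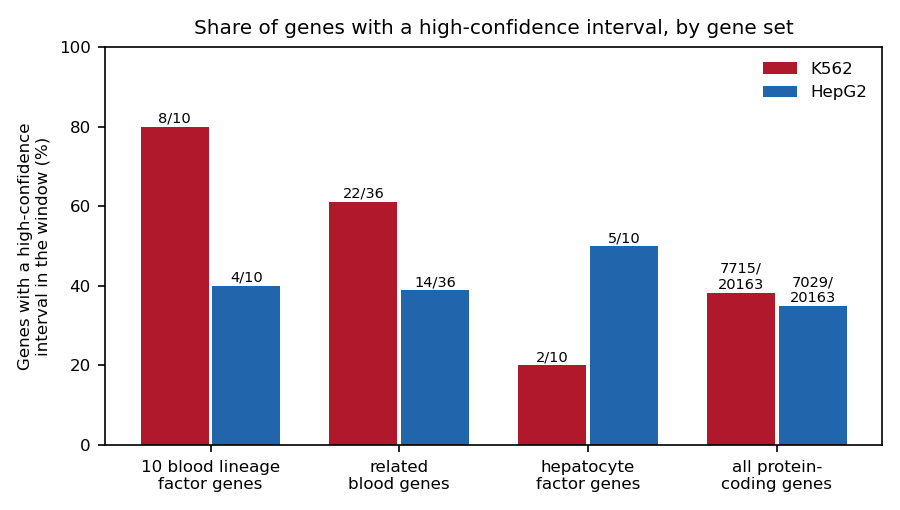
Percent of genes (vertical axis) with a high-confidence interval in their window for the 10 blood lineage factor genes, 36 related blood genes, 10 hepatocyte factor genes and all 20163 protein-coding genes, red for K562 and blue for HepG2, with the counts above the bars. The red bar is the taller in both blood sets, at 80% and 61.1%, and the blue bar is the taller in the hepatocyte set, at 50%, all sets having been chosen with earlier results known.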

How the data were processed

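G4 ChIP-seq of K562 and HepG2 cells was analysed from the interval lists that the authors deposited, whose values are positions in bp on hg19. Per the labels and the study's methods, the authors sheared cross-linked chromatin, made libraries, aligned the reads, called peaks per replicate and merged replicates, keeping stretches shared by the numbers of replicates given above. Depth per sample is unknown, and neither replicates nor input could be compared. From there, all 4 lists were intersected (overlap of at least 1 bp) on GRCh37 with GENCODE version 44 lifted to that build. None of the 65646 intervals ran past a chromosome end, and all high-confidence intervals lay inside lower-confidence ones. Coordinates are 1-based. Sequences come from the same reference, and sequence measures leave out mitochondrial intervals.

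The 10 genes and the lists of related genes were chosen with earlier results of these data known, and 2 genes of the hepatocyte list are not reported here. Named were all members with every high-confidence interval, and lower-confidence intervals at start sites or where a line had no high-confidence interval. Of motifs inside high-confidence intervals, up to 3 per gene with the most runs of G were printed. Those of LYL1 are the exception and are given by position only. Nearer neighbouring genes were named, as were related genes marked in 1 line with no interval in the other. Windows and motif calls were tested on simulated data, and 100% of 300 windows and 3000 motif calls equalled a direct search. Python 3.11.15, numpy 2.4.6, scipy 1.17.1, pysam 0.24.0 and matplotlib 3.10.9 were used. Alternatives were other windows, overlaps, widths, lists and motif definitions.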

Additional observations from a re-analysis of the deposited data

How the results depend on the processing

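Of 106 values recomputed under the alternatives, 95 were classed as kept and 11 as moved. A count was classed as kept if it stayed within 1.5 times its value. A count of 0 had to stay at 0, and a motif share had to stay within its 95% Wilson interval. The limit of 1.5 times is a convention and not a sampling error. With the 2 kb upstream of start sites only, the windows held 11 K562 high-confidence intervals, 7 of them absent from HepG2, and 4 HepG2 ones, 0 of them absent from K562. With the lower-confidence lists the counts were 45 and 50. A motif built from 2-G runs lay in 89.5% of the K562 intervals and in 100% of the HepG2 intervals. Leaving out ZFPM1, a choice made after seeing the data, left 4 HepG2 high-confidence intervals, 1 of them absent from K562, and a motif share of 0%. Taking RUNX1 by its canonical transcript alone, also added after seeing the data, moved no value. Windows with 5 kb upstream reached, for KLF1, a HepG2 peak that lay nearer to the start of the neighbouring gene GCDH than to that of KLF1. With it counted, 5 genes had a HepG2 high-confidence interval and 3 had one in K562 only. The 4 counts of genes stayed within 1.5 times their value under every alternative run. The merged lists hold no replicate, so none could be left out. No paired analysis was possible because each line has only merged lists. Depth limits which weak peaks reach a list, and its size in either line is unknown, so an absent interval means that none was called in enough replicates.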

Other observations

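Few genes held as many intervals as ZFPM1. Counting ZFPM1 itself, 7 of 20163 protein-coding genes had at least 38 HepG2 lower-confidence intervals in their window, 14 had at least 19 K562 lower-confidence intervals, and 62 had at least 5 K562 high-confidence intervals. The window of ZFPM1 is 85752 bp long, and the 1000 bp around its canonical start had a GC content of 79.7%, the highest of the 10 genes, beside 43.6% at RUNX1. Narrow intervals were part of the count, with 3 of 19 K562 and 5 of 38 HepG2 lower-confidence intervals under 50 bp.

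The annotated RUNX1 record runs far upstream of its canonical start, which makes its window 1218868 bp long. It held 124 motifs. Without RUNX1 the other 9 windows held 202 motifs, 120 of them in ZFPM1, which made 56.5 per 100 kb. Of the 202, 3.47% lay at least in part under K562 and 1.49% under HepG2 high-confidence intervals.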
